A study of Mus musculus with 4 samples.

Results

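Glycolysis and the pentose phosphate pathway were followed through 34 genes, of 34866 genes in the table, in B cell lymphomas of λ-MYC mice. The genes were listed by name and role, with no threshold on a measured value, though earlier results of these data were known: the transporters and enzymes that carry glucose to lactate, the kinases that gate pyruvate entry into mitochondria, the PFKFB enzymes and 4 enzymes of the pentose phosphate pathway. All 34 were found in the table through their gene symbols. RNA was sequenced from B220+ IgM+ splenocytes of 2 mice, each bearing 1 tumor (tumors #1 and #2), and the Tom- and Tom+ fractions of each spleen were sequenced apart, in 4 libraries. Both mice were λ-MYC+/TG and R26tdTom+/ki and carried a Cre knock-in allele, so that every library had the MYC transgene, the Cre allele and 1 tdTomato reporter allele. The transgene is human MYC under regulatory sequences of the immunoglobulin λ light chain, and Tom+ cells are those in which the Cre is or was expressed. Ages were not given for these 2 mice, and no library from a mouse without the transgene was analysed here. The Tom- cells therefore served as the comparison within each tumor, and each tumor was a single mouse.

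Glycolysis splits glucose into pyruvate in the cytosol. Hexokinase and phosphofructokinase spend ATP, and the steps from glyceraldehyde phosphate dehydrogenase onwards regain it. Lactate dehydrogenase turns pyruvate into lactate and restores NAD+, whereas pyruvate dehydrogenase sends pyruvate into the mitochondrial citrate cycle and is switched off by PDK kinases. The pentose phosphate pathway branches off after hexokinase: its oxidative arm makes NADPH, and its non-oxidative arm exchanges sugar phosphates with glycolysis and supplies ribose for nucleotides. Many of these genes, with Ldha the textbook case, are known targets of MYC, which binds the E-box sequence CACGTG.

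Levels are given as TPM, a transcript abundance corrected for transcript length and scaled so that each library sums to 1000000, which allows levels of different genes to be compared. Library depth is unknown, because the deposited table holds no read counts. All 9 B cell markers were detected, with a summed level of 2324 to 6024 TPM, and all 9 were higher in tumor #2 in both fractions. Summed levels of the other marker lists ranged from 5.85 to 18.9 TPM for 9 T cell genes, 0.193 to 0.978 for 6 NK cell genes, 2.70 to 13.6 for 13 myeloid genes, 0.856 to 21.5 for 10 erythroid genes, 0.552 to 2.86 for 6 platelet genes and 15.1 to 50.6 for 8 stromal and endothelial genes, nearly all of the last from Pecam1. The highest T cell values were those of Lck, at up to 11.5 TPM, and Cd3d, at 7.77 TPM in Tom- cells of tumor #2. Cd68 was the highest of the myeloid genes, at up to 6.41 TPM, and Ly6g, Elane, Fcgr1 and Cd14 were listed at 0 in every library. Mitochondrial transcripts took 6.61% and 8.67% of the TPM of tumor #1 and 14.4% and 15.6% of that of tumor #2 (Tom- and Tom+ cells), pseudogenes took 30.3% to 31.3% and 23.4% to 25.4%, and immunoglobulin genes took 5.35% to 9.76%.

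The first question was how the pathway was laid out in these lymphoma cells. The 34 genes together held 6523 TPM (Tom-) and 6396 TPM (Tom+) in tumor #1, against 3988 and 3594 TPM in tumor #2. They were thus 0.652% and 0.640% of the transcripts of tumor #1 and 0.399% and 0.359% of those of tumor #2. Gapdh, Eno1 and Ldha made up 61.6% to 67.4% of the summed level of the 34 genes in each library. By mean level over the 4 libraries Gapdh ranked 85th, Eno1 175th, Ldha 281st, Pkm 436th, Tpi1 502nd and Tkt 535th of the 11339 genes that reached 1 TPM in 2 or more libraries. At the other end, Hk3, Eno2, Slc16a3 and Pdk2 did not meet that filter, and the other 30 genes were tested. Levels thus spanned from under 1 TPM for the lowest members to over 1000 TPM for Gapdh within the same library, with every hexokinase and phosphofructokinase below each main enzyme of the lower steps.

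In the GRCm38 annotation these leading genes are protein-coding and lie apart from each other: Gapdh (ENSMUSG00000057666) at chr6:125161715-125166467 on the minus strand, Eno1 (ENSMUSG00000063524) at chr4:150236721-150248879 on the plus strand, Ldha (ENSMUSG00000063229) at chr7:46841475-46855627 on the plus strand and Tkt (ENSMUSG00000021957) at chr14:30548359-30574720 on the plus strand. The values are given per gene, and how transcripts were summed to genes was not given in the sources used here.

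**Figure D1:**
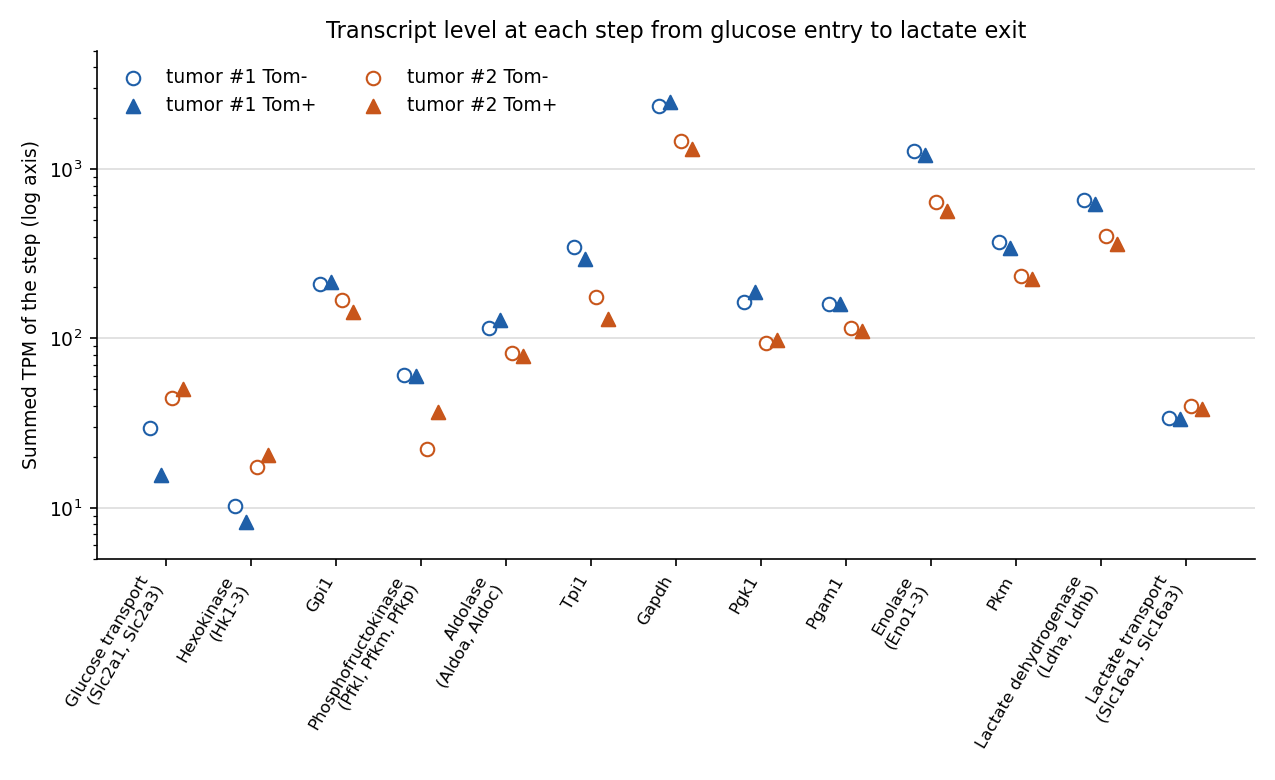
Summed TPM of the genes of each step from glucose transport to lactate transport, in pathway order (log axis, 1 point a library). Gapdh lies highest in every library, at 1321 to 2492 TPM, and from Gpi1 to lactate dehydrogenase both libraries of tumor #2 lie below both of tumor #1.

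Glucose enters through transporters, of which Slc2a1 encodes GLUT1 and Slc2a3 the high-affinity GLUT3. Slc2a3 was measured at 24.2 TPM (Tom-) and 12.5 TPM (Tom+) in tumor #1, against 35.6 and 43.4 TPM in tumor #2. Slc2a1 was at 5.44 and 3.17 TPM in tumor #1, against 8.82 and 7.16 TPM in tumor #2. Slc2a3 therefore held 79.8% to 85.8% of the level of this pair in each library, and both transporters were higher in tumor #2 in both fractions. Tom+ cells of tumor #1 were the lowest library for both genes.

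Hexokinases phosphorylate glucose and trap it in the cell. Hk2, the inducible form common in tumors, was at 9.66 TPM (Tom-) and 7.87 TPM (Tom+) in tumor #1, against 10.1 and 15.6 TPM in tumor #2. Hk1, the form found in most tissues, was at 0.495 and 0.340 TPM in tumor #1, against 6.83 and 4.84 TPM in tumor #2. Hk2 was thus 94.7% and 95.9% of the summed hexokinase level in tumor #1, but 58.1% and 76.4% in tumor #2, where Hk1 supplied most of the remainder (39.3% and 23.6%). Hk3, best known in myeloid cells, was at or under 0.455 TPM, and was listed at 0 in both Tom+ libraries.

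The next steps convert glucose phosphate to triose phosphates. Gpi1, the isomerase that makes fructose phosphate, was at 211 TPM (Tom-) and 216 TPM (Tom+) in tumor #1, against 169 and 144 TPM in tumor #2. Among the phosphofructokinases, which catalyse the committed step, the platelet form Pfkp was at 50.3 and 50.9 TPM in tumor #1, against 12.9 and 27.7 TPM in tumor #2. The liver form Pfkl (3.85 to 6.88 TPM) and the muscle form Pfkm (3.33 to 5.28 TPM) were far below it. The summed phosphofructokinase level of tumor #2 was 36.7% of that of tumor #1 in Tom- cells and 61.8% in Tom+ cells, and the share held by Pfkp was 57.9% and 75.2% in tumor #2 against 83.1% and 85.4% in tumor #1. A part of the Pfkp exons, 748 bases or 5.58%, lies opposite exons of Pitrm1, whose level ran in parallel at 47.5 TPM in Tom- and 48.9 TPM in Tom+ cells of tumor #1, against 22.1 and 39.8 TPM in tumor #2. The strand setting of the libraries was not given in the sources used here, and the part of this overlap in the Pfkp values was not tested.

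Aldolase splits fructose bisphosphate, and triose phosphate isomerase interconverts the products. Aldoa, the form of muscle and most dividing cells, was at 115 TPM (Tom-) and 128 TPM (Tom+) in tumor #1, against 76.6 and 73.5 TPM in tumor #2. Aldoc, the brain form, was at 0.406 and 0.571 TPM in tumor #1, against 5.18 and 4.90 TPM in tumor #2, so that its share of the pair was 0.351% and 0.445% in tumor #1 and 6.34% and 6.25% in tumor #2. Tpi1 was at 347 and 293 TPM in tumor #1, against 176 and 131 TPM in tumor #2. For both main enzymes the libraries of tumor #2 lay below both libraries of tumor #1, whereas the minor form Aldoc lay above.

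The lower steps of glycolysis held the most abundant transcripts. Gapdh, which reduces NAD+, was at 2375 TPM (Tom-) and 2492 TPM (Tom+) in tumor #1, against 1464 and 1321 TPM in tumor #2. Eno1, the common enolase, was at 1261 and 1200 TPM in tumor #1, against 621 and 535 TPM in tumor #2. Both genes were therefore lower in both libraries of tumor #2, at 61.6% and 53.0% of the level of tumor #1 for Gapdh and at 49.3% and 44.6% for Eno1 (Tom- and Tom+ cells). The ATP-yielding kinase Pgk1 was at 164 and 188 TPM in tumor #1, against 94.2 and 97.3 TPM in tumor #2. Phosphoglycerate mutase, Pgam1, was at 160 and 159 TPM and at 116 and 111 TPM, and pyruvate kinase, Pkm, at 372 and 342 TPM and at 235 and 223 TPM. All 5 of these were lower in tumor #2 in both fractions, against 27.5% of the 11339 genes tested, and their libraries did not overlap between the tumors. The share of all genes without such overlap was not computed. Among minor enolases, Eno3, the muscle form, was at 14.6 and 13.3 TPM in tumor #1, against 17.7 and 25.8 TPM in tumor #2, and Eno2, the neuronal form, reached 2.97 TPM in Tom+ cells of tumor #2 and was at or under 0.615 TPM elsewhere. Gene values cannot separate the M1 and M2 splice forms of Pkm.

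Pyruvate then leaves as lactate or enters mitochondria. Ldha, which favours lactate, was at 656 TPM (Tom-) and 621 TPM (Tom+) in tumor #1, against 400 and 357 TPM in tumor #2. Ldhb, the heart form, was at or under 2.35 TPM, so that Ldha held at least 99.3% of the pair in each library. Slc16a1, the proton-linked lactate transporter MCT1, was at 33.8 and 33.4 TPM in tumor #1, against 40.2 and 38.3 TPM in tumor #2, and Slc16a3 (MCT4), typical of hypoxic and muscle cells, was at or under 0.127 TPM. In TPM Ldha was thus lower and Slc16a1 higher in tumor #2, but under trimmed-mean scaling Slc16a1 was lower there too, by -0.11 in Tom- and -0.12 in Tom+ cells on the log2 scale.

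Pdha1, the catalytic subunit of pyruvate dehydrogenase, was at 113 and 103 TPM in tumor #1, against 54.2 and 47.2 TPM in tumor #2. Pdk1, a kinase that inactivates it, was at 101 and 66.5 TPM in tumor #1, against 138 and 112 TPM in tumor #2. The ratio of Pdk1 to Pdha1 was 0.893 and 0.647 in tumor #1 (Tom- and Tom+ cells) and 2.54 and 2.37 in tumor #2, with opposite tumor differences of the kinase and its substrate. Pdk3 was at 32.6 and 27.0 TPM in tumor #1, against 46.6 and 25.2 TPM in tumor #2, and Pdk2 was at or under 1.13 TPM. Pdk1 held 70.4% to 81.3% of the summed level of the PDK kinases in each library.

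PFKFB enzymes make and break fructose 2,6-bisphosphate, the main activator of phosphofructokinase. Pfkfb3, the form with the strongest kinase activity, was at 13.7 TPM in both fractions of tumor #1 and at 14.4 TPM (Tom-) and 11.0 TPM (Tom+) in tumor #2. Pfkfb2 was at 1.41 and 1.86 TPM in tumor #1, against 4.99 and 3.75 TPM in tumor #2, and Pfkfb4 at 0.378 and 0.0618 TPM and at 2.25 and 2.64 TPM. The main form was thus at a like level in both tumors and the minor forms were higher in tumor #2, which put the share of Pfkfb3 at 88.4% and 87.7% in tumor #1 and at 66.6% and 63.2% in tumor #2.

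**Figure D2:**
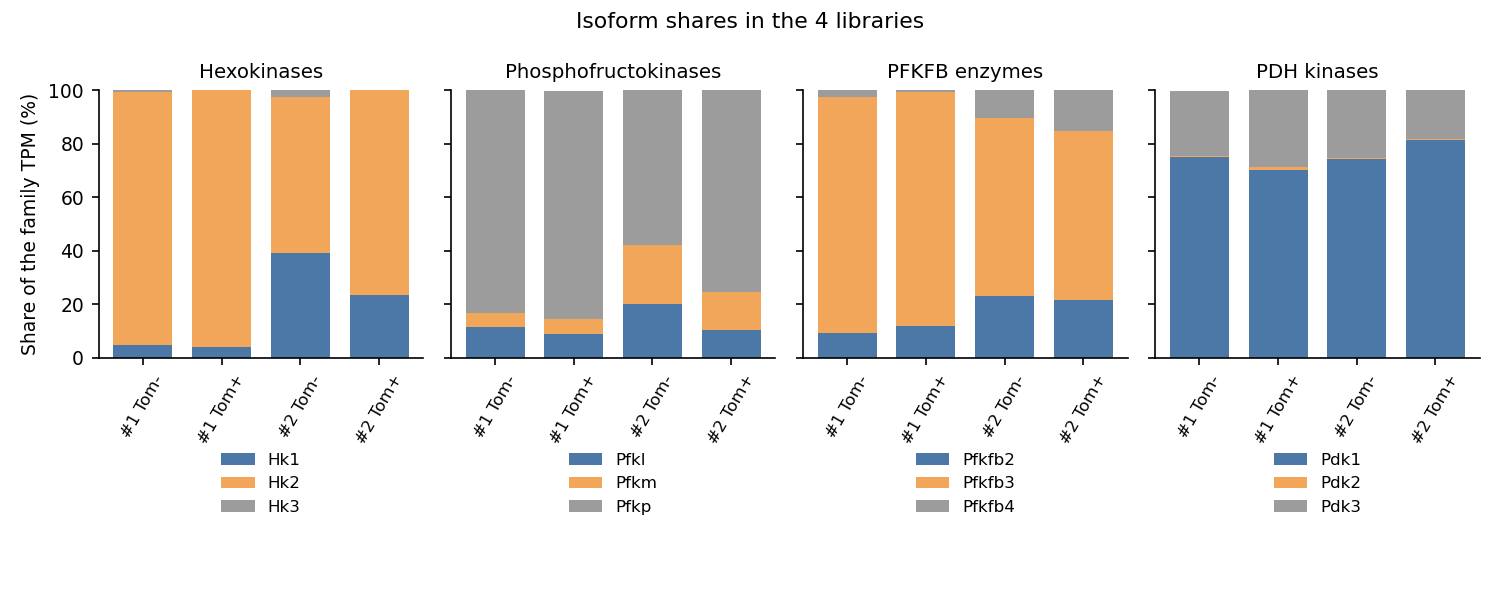
Share of the summed TPM of 4 families held by each isoform in the 4 libraries (stacked bars, percent, #1 and #2 for the tumors). Hk2, Pfkp and Pfkfb3 are the main isoforms in every library, and their shares are smaller in both libraries of tumor #2 than in either library of tumor #1.

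In the pentose phosphate pathway, transketolase (Tkt), a non-oxidative enzyme, was the most abundant, with 321 TPM (Tom-) and 287 TPM (Tom+) in tumor #1, against 137 and 132 TPM in tumor #2. Its partner transaldolase, Taldo1, was at 57.3 and 54.5 TPM in tumor #1, against 37.3 and 28.5 TPM in tumor #2. The summed non-oxidative level of tumor #2 was 46.0% and 47.1% of that of tumor #1 (Tom- and Tom+ cells). In the oxidative arm, which makes NADPH, G6pdx was at 26.5 and 25.8 TPM in tumor #1, against 14.7 and 21.01 TPM in tumor #2, and Pgd at 45.1 and 46.8 TPM and at 36.4 and 34.2 TPM. The summed oxidative level of tumor #2 was 71.2% and 76.1% of that of tumor #1. All 4 enzymes were therefore lower in tumor #2 in both fractions, against 27.5% of the 11339 genes tested. Of the G6pdx exons, 13.6% lie opposite exons of Ikbkg, which was at 12.5 and 6.85 TPM in tumor #1, against 10.4 and 14.6 TPM in tumor #2.

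Across the 30 tested genes, 16 were lower in tumor #2 than in tumor #1 in both fractions, against 27.5% of the 11339 genes tested, and 12 were higher, against 49.6%. With 1 mouse a tumor no test is possible, and these are values of 2 mice. On the log2(TPM + 1) scale the median difference of the 30 genes (tumor #2 minus tumor #1, mean of both fractions) was -0.41, with -0.31 in Tom- and -0.34 in Tom+ cells, whereas the median over all genes tested was 0.20. At least 2-fold lower in both fractions were Eno1, Pdha1 and Tkt (3.1% of all genes), and at least 2-fold higher were Hk1, Aldoc and Pfkfb4 (11.8% of all genes). Each of the last 3 had a mean level of 3.13 TPM or less, where the added 1 TPM understates a fold.

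The direction went with abundance. Of the 17 genes with a mean of at least 30 TPM, a limit chosen after the values were seen, 14 were lower in tumor #2 in both fractions and 2, Slc16a1 (lower under trimmed-mean scaling) and Pdk1, were higher, with a median difference of -0.75. Protein-coding genes above the same limit (n = 2803) had a median of 0.0058, and 39.5% of them were lower. Of the 13 tested genes under 30 TPM, 10 were higher in tumor #2 and 2 lower, with a median of 0.79, where protein-coding genes under the limit had a median of 0.28 and 55.0% were higher. The larger mitochondrial share of tumor #2 and its smaller pseudogene share moved with these differences. With mitochondrial, immunoglobulin and pseudogene entries left out and the rest rescaled, the median of the abundant genes was -0.68, against 0.30 over all genes. For the rescaled values the median of protein-coding genes above the same limit was not computed. Under trimmed-mean scaling, quantile normalization and that rescaling alike, 16 of the 30 genes stayed lower in tumor #2. Another 8 stayed higher: Slc2a1, Slc2a3, Hk1, Aldoc, Ldhb, Pdk1, Pfkfb2 and Pfkfb4. In a single scaling, TPM included, 23.7% to 43.7% of all genes were lower in tumor #2 and 33.9% to 55.0% higher. The share of all genes that kept its direction in every scaling was not computed. Trimmed-mean scaling moved the median over all genes from 0.20 to -0.097 and the split of all genes to 43.7% lower and 34.1% higher, with 18 members lower and 9 higher. Relative to the median over all genes, the members stood at -0.61 in TPM and at -0.63 under that scaling. That scaling moves all genes of a library by 1 factor, so it could hardly change this offset. Under quantile normalization the same 30 members stood at -0.38 relative to that median, and at -0.64 with those entries left out. In libraries of sorted cells, fewer cells of one kind and less RNA per cell cannot be told apart.

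**Figure D3:**
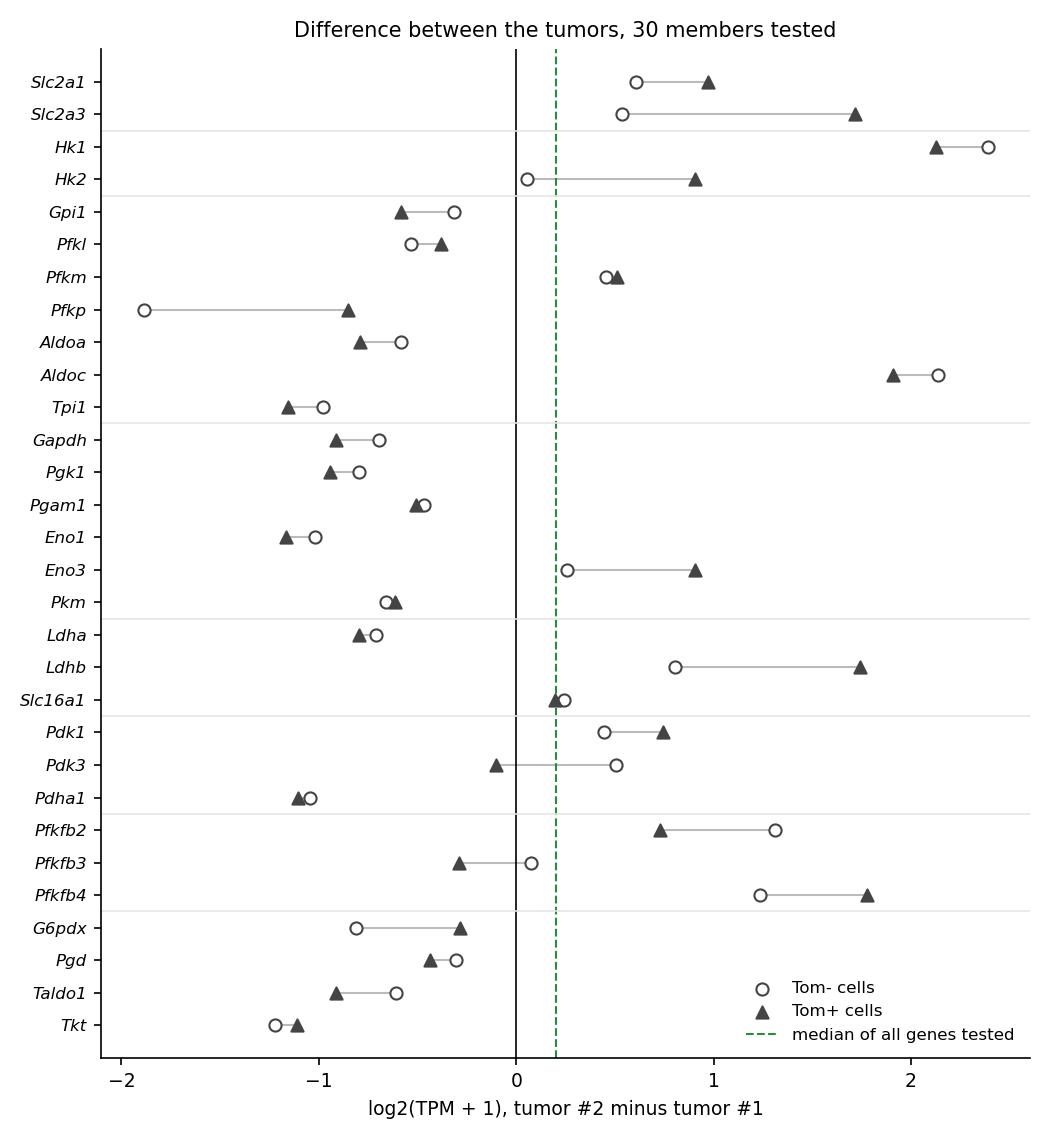
Difference between the tumors for the 30 tested genes, as log2(TPM + 1) of tumor #2 minus tumor #1, in Tom- and in Tom+ cells. Eno1, Pdha1 and Tkt lie beyond -1 and Hk1, Aldoc and Pfkfb4 beyond 1 in both fractions, while the median over all genes tested is 0.20.

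The study's own comparison was that of Tom+ with Tom- cells, which asks what sets apart the lymphoma cells that the reporter marks. No tested gene of the 34 passed. With limma on log2(TPM + 1), tumor as a block, none of the 30 tested genes reached an adjusted p under 0.05, nor did any of the 11339 genes (0%), and none reached an unadjusted p under 0.05, against 4.67% of all genes. The smallest adjusted p of a member was 0.936. With 2 tumors the fit had 1 residual degree of freedom, and an exact paired permutation test of 1 gene cannot go below 0.5. The study's own test, run on counts, did report genes that differed between these fractions. That test was not run here, because no counts were used.

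Of the 30 tested genes, 15 were lower in the Tom+ fraction of each tumor, against 29.5% of all genes, and 3 were higher in both, namely Pfkm, Pfkp and Pgk1, against 21.6%. With mitochondrial, immunoglobulin and pseudogene entries left out and the rest rescaled, 10 of the same 30 genes were lower and 6 higher, against 23.7% and 27.1% of all genes. The median log2 difference of the 30 genes was -0.099 (-0.076 in tumor #1, -0.079 in tumor #2), against a median of -0.033 over all genes. Libraries of the 2 groups did not overlap for 2 genes that were lower in Tom+ cells, Pdk3 and Pfkfb3 (9.86% of all genes), and for 0 genes that were higher (6.42%). For Pfkfb3 the gap was slight, since both libraries of tumor #1 were at 13.7 TPM. Of the 9 B cell markers, 7 were also lower in the Tom+ fraction of each tumor (median -0.23), and their part in the values of the 30 genes was not tested. Under each scaling tried, 10 genes were lower in both tumors: Slc2a1, Hk1, Pfkl, Tpi1, Eno1, Ldha, Pdk1, Pdk3, Pdha1 and Taldo1. Over all genes, 23.7% to 29.5% were lower in both tumors in a single scaling. The share of all genes lower in every scaling was not computed.

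The members with the smallest p-values were the PDK kinases and Tpi1. Pdk1 in Tom+ cells was at 66.1% of its Tom- level in tumor #1 and at 81.3% in tumor #2 (log2 difference -0.44 ± 0.15, SE, limma unadjusted p = 0.0555, adjusted p = 0.936). Tpi1 was at 84.4% and 74.6% (-0.33 ± 0.13, limma unadjusted p = 0.0744). Pdk3 was at 83.1% and 54.0% (-0.56 ± 0.22, limma unadjusted p = 0.0815). The summed level of the PDK kinases in Tom+ cells was 70.6% of that in Tom- cells in tumor #1 and 74.3% in tumor #2, and Pdha1 stood at 91.2% and 87.0%. All 3 tested genes of the pyruvate gate were thus lower in the Tom+ fraction of each tumor, against 29.5% of all genes, and none of them passed the test. Pdk2, which was at or under 1.13 TPM and was not tested, had log2 differences of 0.32 in tumor #1 and -0.45 in tumor #2.

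Several differences were carried by 1 tumor. Pfkp in Tom+ cells was at 101% of its Tom- level in tumor #1 and at 216% in tumor #2 (log2 difference 0.53 ± 0.32, SE). Slc2a3 was at 51.8% in tumor #1 and at 122% in tumor #2, Hk2 at 81.4% and 155%, Eno3 at 90.9% and 146%, and G6pdx at 97.4% and 143%. For 12 of the 30 genes the tumors differed in sign. Of the 11339 genes tested, 5538 did so or had no difference in a tumor. The most abundant transcripts differed less, with Gapdh at 105% and 90.2% of the Tom- level, Eno1 at 95.2% and 86.1%, Ldha at 94.6% and 89.3%, and Pkm at 92.0% and 94.9%.

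**Figure D4:**
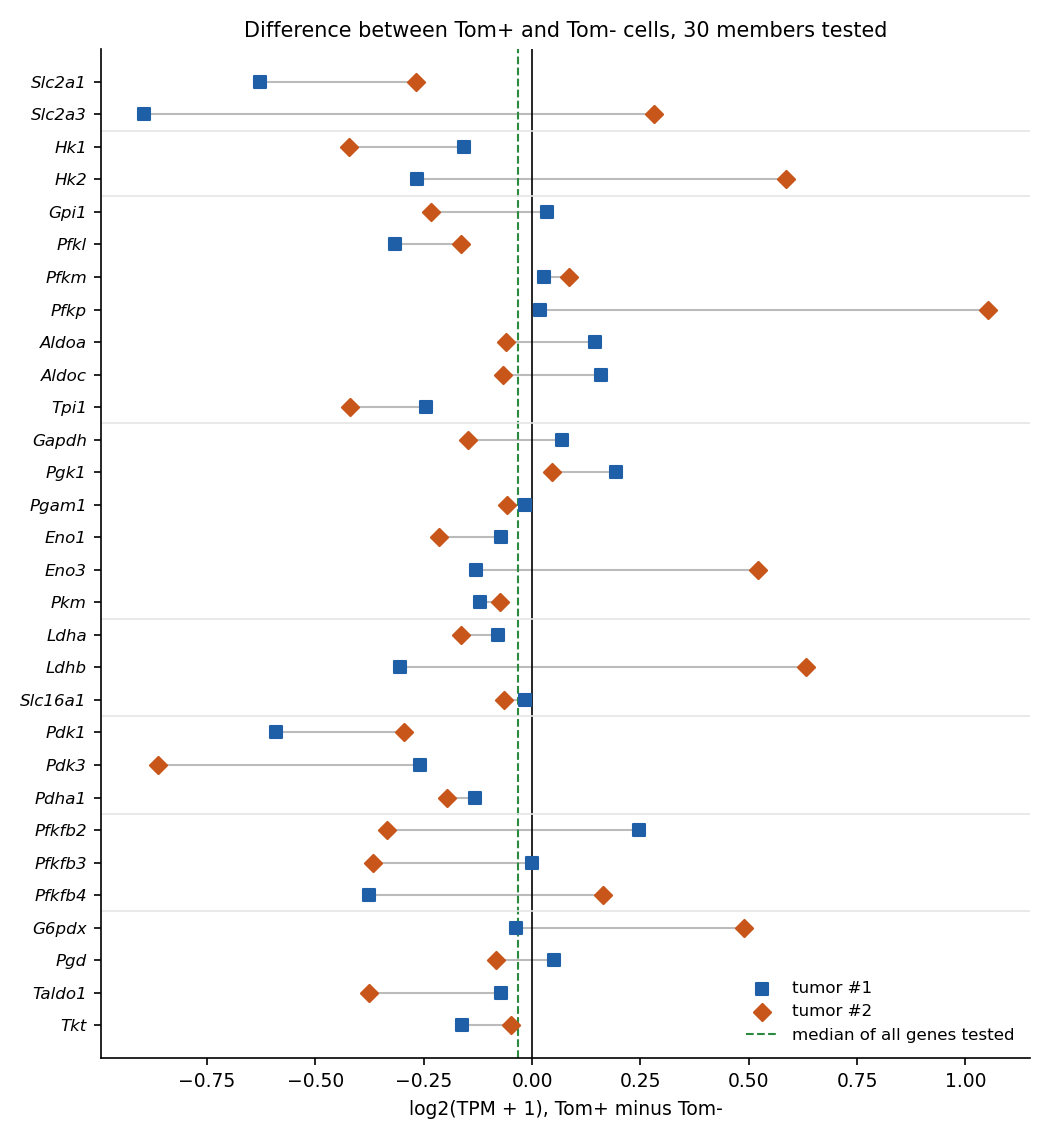
Difference between Tom+ and Tom- cells for the 30 tested genes, as log2(TPM + 1) of Tom+ minus Tom-, in each tumor. Pfkp of tumor #2 lies farthest to the right, at 1.05, and Slc2a3 of tumor #1 farthest to the left, at -0.90, while the other tumor lies at 0.02 and 0.28 for these genes.

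Processed pseudogenes with nearly the same sequence share reads with several of these genes, so that their values depend on how reads were divided. At an identity of at least 90% over at least 50% of the copy, Gapdh had 174 near-copies in the table. Together they held 245 TPM (Tom-) and 237 TPM (Tom+) in tumor #1, against 150 and 97.6 TPM in tumor #2, which was 7.39% to 10.3% of the level of Gapdh itself. Most of it sat on Gm10359, identical to Gapdh over 1002 aligned bases, at 179, 162, 94.0 and 54.8 TPM in the same order. Pgk1 had 2 near-copies, Gm5537 (identical over 1252 bases) and Pgk1-rs7, with a sum that ran from 79.2 TPM in Tom- cells of tumor #1 to 1.18 TPM in Tom+ cells of tumor #2. The copies stood at 48.3% and 26.6% of the Pgk1 level in tumor #1 (Tom- and Tom+ cells), against 19.4% and 1.22% in tumor #2. With the copies added, Pgk1 was at 243 and 238 TPM in tumor #1, against 112 and 98.5 TPM in tumor #2, and its log2 difference between Tom+ and Tom- cells turned from 0.12 to -0.11. The direction of Pgk1 between the fractions is therefore uncertain, and its lower level in tumor #2 was seen either way. In Tom+ cells of tumor #2 a copy of Ldhb held 1.91 TPM, 81.3% of the Ldhb value.

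**Figure D5:**
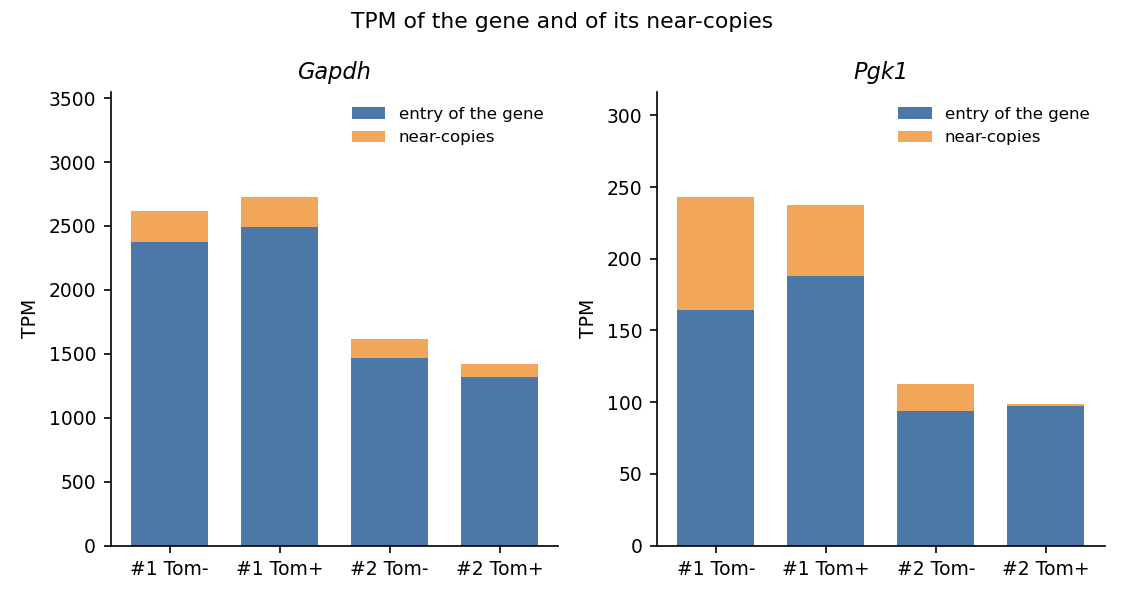
TPM of Gapdh and Pgk1 and of their near-copies in the 4 libraries (stacked bars, #1 and #2 for the tumors). For Pgk1 the copies hold 79.2 TPM in Tom- cells of tumor #1 and 1.18 TPM in Tom+ cells of tumor #2, and with them added both libraries of tumor #1 lie above both of tumor #2.

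Promoters were compared because MYC binds E-boxes and members differed in opposite directions between the tumors. In the 250 bases before the RefSeq start (build GRCm38.p6), CACGTG, which reads the same on both strands, occurred in 6 of 33 members with a sequence (18.2%) and in 6.86% of 27025 genes. The 6 were Pfkm, Ldha, Slc16a1, Pdk2, Pfkfb2 and Pfkfb3. ACGTG, the core bound by hypoxia-inducible factors, is also contained in CACGTG. It occurred on either strand in 15 of 33 members (45.5%) and in 18.5% of the 27025 genes. Those genes were not limited to genes expressed here, and a gene counted if any of its windows held the match. A set matched in expression was not compared. Ldha and Slc16a1 are shown as an enzyme and the transporter of its product, both with an E-box, and Tkt as an abundant gene with neither motif in its window. E-boxes are in capitals, and all 3 windows lie on the plus strand, at chr7:46845554-46845803 (Ldha), chr3:104638414-104638663 (Slc16a1) and chr14:30548881-30549130 (Tkt). The windows of Ldha and Tkt lie inside the GENCODE genes, which begin at 46841475 and 30548359, so they precede RefSeq starts within these genes. The window of Slc16a1 lies before its gene, which begins at 104638668.
Ldha: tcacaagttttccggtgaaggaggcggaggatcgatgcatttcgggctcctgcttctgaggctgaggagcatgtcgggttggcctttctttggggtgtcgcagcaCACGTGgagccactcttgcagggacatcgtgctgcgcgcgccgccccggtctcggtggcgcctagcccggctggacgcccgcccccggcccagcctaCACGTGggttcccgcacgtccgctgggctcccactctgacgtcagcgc
Slc16a1: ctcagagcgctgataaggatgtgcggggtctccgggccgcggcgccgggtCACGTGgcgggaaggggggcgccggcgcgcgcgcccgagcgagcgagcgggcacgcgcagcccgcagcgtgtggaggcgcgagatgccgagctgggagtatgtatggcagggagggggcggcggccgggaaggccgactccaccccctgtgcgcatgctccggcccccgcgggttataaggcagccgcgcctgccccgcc
Tkt: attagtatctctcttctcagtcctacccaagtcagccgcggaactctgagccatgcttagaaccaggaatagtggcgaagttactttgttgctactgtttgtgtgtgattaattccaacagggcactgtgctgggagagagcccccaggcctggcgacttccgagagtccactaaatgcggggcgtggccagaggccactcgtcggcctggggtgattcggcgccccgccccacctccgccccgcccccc
The table gives 2 windows for Ldha, of which the one with more E-boxes is shown. The E-boxes of Ldha begin 145 and 48 bases before the start, and that of Slc16a1 begins 200 bases before it. The 5 tested members with an E-box had a median tumor difference of 0.22, and the 24 without one had a median of -0.47. By the mean of both fractions, 2 and 15 of them were lower in tumor #2. Pfkfb3, counted among the 2, was higher there in Tom- cells. Split by ACGTG instead, the 12 tested members with it had a median of 0.046 and the 17 without it -0.46. By the same mean, 6 and 11 of these were lower in tumor #2. Of the tested E-box members, Pfkm, Pfkfb2 and Pfkfb3 had a mean under 30 TPM, where most tested members were higher in tumor #2. Neither split was matched for abundance, and a link of either motif to the tumor difference was not tested. A match is a description of these letters only.

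Further genes of the same metabolism were read from lists, none of whose genes passed an adjusted p of 0.05 between Tom+ and Tom- cells by limma. Of 42 other genes of glycolysis, pentose phosphate and pyruvate entry, 25 were tested. In Tom+ cells 4 were higher (16%) and 9 lower (36%) in both tumors (median -0.090), against 21.6% and 29.5% of all genes. In tumor #2 5 were higher (20%) and 9 lower (36%) in both fractions, against 49.6% and 27.5%. The largest differences between fractions were 0.55 for Pgam2, the muscle mutase, and -0.45 for Slc2a8, an intracellular glucose transporter. Both genes lay near the filter limit of 1 TPM, at 0.535 to 1.49 TPM and at 0.712 to 1.85 TPM. The largest differences between tumors were 1.40 for H6pd, which makes NADPH in the endoplasmic reticulum, and 1.15 for Rbks, the ribokinase. Rpia, which makes ribose phosphate in the non-oxidative arm and was picked out after its values were seen, was at 50.7 and 51.8 TPM in tumor #1, against 23.6 and 21.9 TPM in tumor #2, the direction of Tkt and Taldo1.

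Of 18 genes of gluconeogenesis and glycogen, 11 were tested. Both tumors showed 2 higher and 2 lower in Tom+ cells (18.2% each, against 21.6% and 29.5% of all genes). Pcx, which carboxylates pyruvate, had the largest difference between fractions (-0.59, with 1.54 in tumor #1 and -2.73 in tumor #2), followed by Slc37a4 (-0.23, with 0.32 and -0.77), the glucose phosphate carrier. Gys1, the glycogen synthase, was higher in tumor #2 by 1.85. Of 11 genes of NADH shuttles, which restore NAD+ by way of mitochondria, 10 were tested. In Tom+ cells of both mice 4 were lower (40%) and 0 higher, against 29.5% and 21.6% of all genes. Mdh1, the cytosolic malate dehydrogenase, was at 251 TPM (Tom-) and 198 TPM (Tom+) in tumor #1, against 180 and 111 TPM in tumor #2 (log2 difference -0.51 ± 0.15, SE, limma unadjusted p = 0.0394, adjusted p = 0.936). Slc25a12, an aspartate-glutamate carrier, had a difference of 0.44, with opposite signs in tumor #1 (-0.19) and tumor #2 (1.07). Its paralog Slc25a13 was listed at 0 in both libraries of tumor #1 and was at 5.46 and 8.13 TPM in tumor #2, and Slc25a10, the dicarboxylate carrier, was at 9.81 and 7.94 TPM in tumor #1, against 2.52 and 2.45 TPM in tumor #2.

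Of 16 regulators of glycolysis, 11 were tested. In Tom+ cells 5 were higher (45.5%) and 4 lower (36.4%) in both tumors, against 21.6% and 29.5% of all genes. In tumor #2 9 were higher (81.8%) and 1 lower (9.09%) in both fractions, against 49.6% and 27.5%. Vhl and Egln2, which mark hypoxia-inducible factors for destruction, had the largest differences between fractions. That of Vhl, -0.59, rested on tumor #1 (-1.22, against 0.039 in tumor #2), and that of Egln2, -0.52, was alike in both (-0.47 and -0.57). Mlxip, a glucose-sensing transcription factor, was at 17.4 and 17.3 TPM in tumor #1, against 60.8 and 62.8 TPM in tumor #2. Trim63, a muscle ubiquitin ligase that the list also held, differed by -2.05 between the tumors. The mouse Myc gene, named outside the rule as the endogenous counterpart of the transgene, was at 38.1 and 39.3 TPM in tumor #1, against 44.9 and 45.6 TPM in tumor #2, and reads of the human transgene could count towards it. Of 16 hypoxia response genes in the table, 10 were tested. Of these, 3 were lower (30%) and 1 higher (10%) in Tom+ cells in both mice, against 29.5% and 21.6% of all genes. Ankrd37 differed by -0.44 between the fractions, more in tumor #1 (-0.77) than in tumor #2 (-0.11), and Mif by -0.43, nearly all of it in tumor #2 (-0.85, against -0.014). Ddit4, an inhibitor of mTORC1, was at 3.68 and 3.78 TPM in tumor #1, against 43.0 and 33.1 TPM in tumor #2, and Ankrd37 was higher in tumor #2 by 2.07. Of 12 listed retrocopies and testis paralogs in the table, 3 were tested. Gapdhs, the sperm form of Gapdh, was at 0.0562 TPM (Tom-) and 0.956 TPM (Tom+) in tumor #1, against 1.62 and 3.80 TPM in tumor #2 (log2 difference 0.88 ± 0.24, SE, limma unadjusted p = 0.0298, adjusted p = 0.936). Pgk1-rs7 differed by -0.51 between the fractions and by -1.87 between the tumors.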

How the data were processed

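The 4 libraries of 2 mice were used, grouped by the labels into Tom- and Tom+ cells (n = 2 each). The authors extracted RNA from sorted cells with the PicoPure kit, built NEBNext libraries and sequenced single reads. Per the labels and the study's methods, reads were demultiplexed with CASAVA (1.8), trimmed with Cutadapt and quantified with Salmon (1.9) on the GRCm38 mouse transcriptome. The deposited values are TPM per gene, normalized by the authors for transcript length and to a total of 1000000 per library, so a gene's TPM also moves when other genes take more of the library. How transcripts were summed to genes and the strand setting were not given in the sources used here. The study's count test was not run, because no counts were used here.

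Gene symbols and exons came from GENCODE release M21 of GRCm38 (34652 of 34866 identifiers matched). Aldoa has 2 entries, of which the one at or under 0.643 TPM was left out. Genes with TPM of at least 1 in 2 or more libraries were tested on log2(TPM + 1) with limma 3.58.1 in R 4.3.3, with the tumor as a block, a variance trend (prior degrees of freedom 2.21) and Benjamini-Hochberg adjustment over 11339 genes. A fold on this scale understates the change of low genes. The block pairs fractions of the same mouse: the Tom- and Tom+ deviations from their group means correlated across genes (Pearson r = 0.626, Spearman rho = 0.669 over 11339 genes, which are not independent). The 2 mice are the replicates. Tumors were compared as values, with no test. Near-copies were found with BLAST+ 2.17.0 (at least 90% identity over at least 50% of the copy and at least 100 bases). Scripts were tested on simulated data. Every member is named. Of each other list, genes past an adjusted p of 0.05 were to be named, and otherwise the 2 with the largest difference between fractions and the 2 with the largest between tumors. Some named items are not reported here. The members and lists were chosen with earlier results of these data known. Alternatives changed the pseudocount, the filter, the scaling, the block, the variance trend, the near-copies and the libraries used.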

Additional observations from a re-analysis of the deposited data

How the results depend on the processing

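No alternative gave a member with an adjusted p under 0.05, and the smallest adjusted p of a member over 11 alternative fits was 0.913. Fitted with no replicate block, which ignores that fractions of a mouse are paired, 0 members were called and 0 had an unadjusted p under 0.05. Without a filter 1 member, Pdk1, had a limma unadjusted p under 0.05 (0.0438, adjusted p = 0.929). The median log2 difference of the members between Tom+ and Tom- cells, -0.099, was -0.103 with a pseudocount of 0.1, -0.083 without a filter, -0.103 at a mean of at least 5 TPM, -0.095 under trimmed-mean scaling, -0.045 under quantile normalization, -0.045 with immunoglobulin, mitochondrial and pseudogene entries left out, and -0.102 with near-copies added by sequence (chosen after seeing the data). In 1 tumor at a time it ranged from -0.079 to -0.076. Members higher in both tumors, 3, numbered 5 without a filter, where all 34 were tested, and 7 with those entries left out (6 over the same 30 members), and 9 were higher in each tumor taken alone. The median tumor difference, -0.41, was -0.094 without a filter, -0.52 at a mean of at least 5 TPM, -0.73 under trimmed-mean scaling, -0.46 under quantile normalization, -0.18 with those entries left out (32 members passed the filter then, and over the same 30 members it was -0.35), -0.31 in Tom- cells and -0.34 in Tom+ cells. Members at least 2-fold higher in tumor #2, 3, numbered 0 at a mean of at least 5 TPM, since all 3 are below it, and those at least 2-fold lower, 3, numbered 8 under trimmed-mean scaling. Of 324 member values in the alternative fits over both tumors 10 changed sign, in 8 members. In 1 tumor alone 12 members changed sign, and 15 of the 30 did so in one or the other way. The values of tumor #1 and tumor #2, in this order, were -0.90 and 0.28 for Slc2a3 and -0.27 and 0.59 for Hk2. They were 0.034 and -0.23 for Gpi1, 0.15 and -0.059 for Aldoa, 0.16 and -0.067 for Aldoc, and 0.069 and -0.15 for Gapdh. Those of Eno3 were -0.13 and 0.52, those of Ldhb -0.31 and 0.63, and those of Pfkfb2 0.25 and -0.33. In the same order, Pfkfb4 had -0.38 and 0.16, G6pdx -0.037 and 0.49, and Pgd 0.050 and -0.084. Quantile normalization gave -0.018 for Aldoc, 0.0060 for Pgam1 and 0.015 for Pgd. Leaving out those entries gave 0.015 for Gapdh, 0.018 for Pgam1, 0.012 for Slc16a1, 0.012 for Pfkfb2 and 0.036 for Pgd. A pseudocount of 0.1 gave -0.39 for Ldhb, and added near-copies gave -0.11 for Pgk1. Beyond these constructions the cause was not tested. The unknown depth, 1 mouse per tumor and 1 residual degree of freedom limit the precision.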
